A study of Mus musculus with 4 samples.

Results

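RFX2 peaks at internal alternative promoters were the peaks of the replicate 1 ChIP-seq list that overlapped a promoter window (1000 bp before to 500 bp after the start) of any protein-coding transcript, but met that window at the 5′-most start of no protein-coding gene. The rule gave 541 of the 39825 peaks of replicate 1, at 486 genes. For comparison, 2007 peaks met the window at a 5′-most start, and 37277 met no protein-coding window. The rule used the position and extent of a peak alone, so peak scores, presence in other lists and sequence were not used to choose the members.

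RFX2 was immunoprecipitated with an antibody from Santa Cruz Biotechnology (sc-10657) from testis of WT mice on a mixed background of C57BL/6, 129/Sv and FVB/N, at postnatal days 29 to 30 according to the sample labels. The study's text instead describes dissociated germ cells of younger mice for this experiment, and the difference could not be settled. The labels name the source as decapsulated testis, which holds somatic cells as well as germ cells. There were 2 ChIP samples (replicates 1 and 2) and 2 input samples, all WT, and no RFX2-deficient chromatin was analysed here. Input data served as the authors' peak calling control and were not analysed here on their own. Replicate lists carried 1 score per peak on a −log10 scale, from 2.03 to 475 in replicate 1 and from 2.08 to 266 among the 21274 peaks of replicate 2. Another list of 2726 peaks, called the combined list, held for each peak its summit, its −log10 p and its fold enrichment over local background. Read depth is unknown from these files, and the score of a peak grows with depth as well as with enrichment, so scores were not compared between replicates as amounts of binding.

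RFX2 is one of the RFX proteins, which share a winged-helix domain and recognise the X-box, a palindrome of 14 letters made of 2 arms of 7 letters. RFX factors are known for controlling genes of cilium assembly, and RFX2 acts in meiotic and early haploid male germ cells, before the sperm flagellum forms. Many mammalian genes have several promoters, and transcripts that begin inside a gene can differ from the longer transcript in the 5′ untranslated region alone or in the amino end of the protein. Annotations differ in the starts they list for a gene.

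The sites in the strongest of these peaks are shown first, because they let the palindrome be read directly beside the values that follow. Each line gives 30 bases of the GRCm38 patch 6 genome (RefSeq) along the strand of the gene, with the best match to the X-box in capitals and 8 bases on either side. The searched word was GTTGCCA followed by its reverse complement, which reads the same on both strands, with at most 3 mismatches. Position 1 is the first base of the palindrome.
Tbcel: cattcccgGTTGCCATGGCAACcgcagctc
Pef1: agttctcaGTAGCCATGGCAACcgcctggg
Cmtr2: ccagttccGTTGCCATGGCGACccgctgag
Por: agctgaatGTTGCTATGGCAACtgtaacct
Cbx5: ggctgccaGTTGTCATGGCAACgaactggg
Pifo: gcggttccGTTCCCTTGGCAACgtagtaca
Etfbkmt: cgttcccaGTTGCCTTGGGAACcgagggac
Tmem9: tgggtcttGTTGTCTTGGCAACtagcgagg
Sorbs2: tgttggctGTTGCTATGGCTACgaaaagcc
Dlg4: tggcttcgGTTGCCCTGGCAATtggggaag
Dync2h1: gtgaagcgGTCGCCATAGCGACggagcttg
These were the 11 sites found in the whole peak among the 15 highest-scoring members that lay in all 3 lists. In 8 members a site lay in the 200 bp around the peak centre, the window used for the shares below. The sites at Pef1, Por and Tbcel lay outside that window. Tbcel matched the palindrome at every position (chr9:42472339-42472352). Pef1 differed by T3A (chr4:130107224-130107237), Cmtr2 by A12G (chr8:110217680-110217693), Por by C6T (chr5:135675085-135675098) and Cbx5 by C5T (chr15:103215403-103215416). Pifo differed by G4C and A7T (chr3:106001504-106001517), Etfbkmt by A7T and C11G (chr6:149141441-149141454), Tmem9 by C5T and A7T (chr1:136017956-136017969), Sorbs2 by C6T and A12T (chr8:45627662-45627675) and Dlg4 by A7C and C14T (chr11:70029257-70029270). Dync2h1 carried the most differences of this set, T3C, G9A and A12G (chr9:7177030-7177043). The centre of the palindrome lay between -5.5 and 4.5 bp from the combined-list summit in all 11, along the strand of the gene.

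For 4 of these members the site lay within the 150 bp just upstream of the internal start, in sequence that no protein-coding exon overlaps, and that stretch is shown whole to place the site against the start, which follows the last base. Pifo is at chr3:106001498-106001647 on the minus strand, Etfbkmt at chr6:149141363-149141512 on the plus strand, Sorbs2 at chr8:45627589-45627738 on the plus strand and Tbcel at chr9:42472266-42472415 on the minus strand, with the X-box in capitals.
Pifo: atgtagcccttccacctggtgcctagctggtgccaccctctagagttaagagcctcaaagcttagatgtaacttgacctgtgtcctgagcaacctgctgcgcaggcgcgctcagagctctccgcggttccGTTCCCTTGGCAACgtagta
Etfbkmt: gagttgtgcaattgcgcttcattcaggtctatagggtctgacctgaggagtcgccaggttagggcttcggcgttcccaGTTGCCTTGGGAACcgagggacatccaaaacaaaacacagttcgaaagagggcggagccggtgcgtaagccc
Sorbs2: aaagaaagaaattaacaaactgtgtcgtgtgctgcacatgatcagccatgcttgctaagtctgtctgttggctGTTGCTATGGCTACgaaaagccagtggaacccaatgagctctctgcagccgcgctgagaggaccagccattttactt
Tbcel: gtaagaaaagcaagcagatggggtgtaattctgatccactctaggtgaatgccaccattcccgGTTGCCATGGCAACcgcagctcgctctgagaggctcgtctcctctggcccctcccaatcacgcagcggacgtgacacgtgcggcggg
The centre of the palindrome lay at -13.5 bp from the start in Pifo, at -65.5 bp in Etfbkmt, at -70.5 bp in Sorbs2 and at -80.5 bp in Tbcel.

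The strongest member was at Pef1, which encodes a calcium-binding protein of the penta-EF-hand family. This peak (chr4:130106363-130107797) scored 292 in replicate 1, where it ranked 16, and 118 in replicate 2, and its −log10 p was 348 and its enrichment 44.1-fold in the combined list. Its internal start lay 5.0 kb downstream of the 5′-most start. Next came Dync2h1, the heavy chain of the dynein that drives retrograde intraflagellar transport, at chr9:7176294-7177619, with scores of 251 and 121, 284 as the −log10 p of the combined list and 23.7-fold enrichment. The summit of that peak was 12 bp downstream of an internal start 7.49 kb from the 5′-most one. Pifo, a protein of the primary cilium, followed at chr3:106000726-106002283 with scores of 240.0 and 118, 271 as the −log10 p of the combined list and 20.7-fold enrichment. All 3 peaks ranked among the first 80 in each list.

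The remaining 12 of the 15 strongest held genes of unlike function. Etfbkmt, a mitochondrial protein lysine methyltransferase, scored 234 and 95.3 in replicates 1 and 2. The lysosomal membrane protein Tmem9 scored 229 and 92.8. Cmtr2, an mRNA cap methyltransferase, scored 228 and 111. Usp30, a deubiquitinase of the mitochondrial outer membrane, scored 212 and 133, the highest replicate 2 score of any member. Sorbs2, an adaptor of the actin cytoskeleton, scored 207 and 64.7. Por, the electron donor of microsomal cytochrome P450 enzymes, scored 201 and 82.3 and had the highest fold enrichment of any member in the combined list, 45.9. The tubulin cofactor-like Tbcel scored 199.7 and 86.3, the microtubule-associated kinase Mast3 183 and 84.7, and the scaffold protein Dlg4 172 and 62.5. Wdr17 scored 171 and 68.3, Fam131a 167 and 70.7, and Cbx5, the heterochromatin protein HP1 alpha, 151 and 48.9. Over the 15, the replicate 2 scores ran from 48.9 to 133 and the combined fold enrichment from 17.0 to 45.9, with a median of 26.4. None of the 15 host genes had a replicate 1 peak at its 5′-most promoter. Such a peak was present at 11.5% of the 486 host genes and 9.72% of all protein-coding genes. At those shares few would be found among 15 genes.

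**Figure D1:**
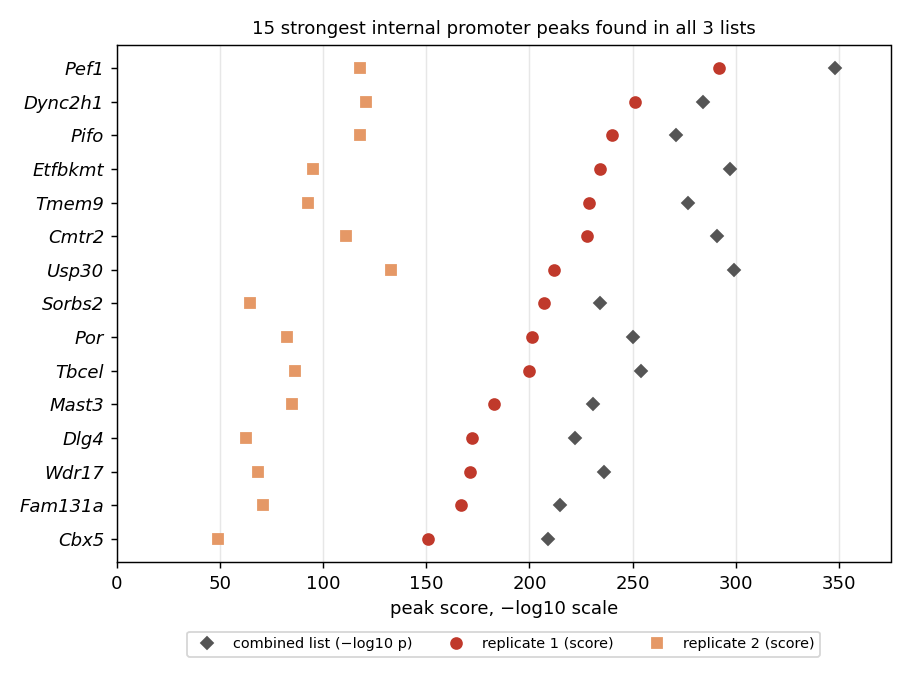
Scores of the 15 strongest internal promoter peaks that lay in all 3 lists, with 1 row per gene; circles are replicate 1 scores, squares replicate 2 scores and diamonds the −log10 p of the combined list. Replicate 1 scores run from 151 to 292 and replicate 2 scores from 48.9 to 133, and every circle lies right of its square.

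Of the 541 members, 115 were met by both the replicate 2 list and the combined list, 115 by replicate 2 alone, 2 by the combined list alone (a weaker peak at Cep57l1 and one at Spata45), and 309 by neither, at an overlap of 1 bp or more. The members in all 3 lists with a replicate 1 score of 100 to 150 numbered 16 and lay at Meig1, Vcl, Cpt1b, Nol4, Sdc3, Cenpj, Ak1, Celf6, Smdt1, Intu, Esrra, Dnal4, Iqsec1, Sptbn4, Per1 and Ankef1. Those scoring 75 to 100 numbered 19, at Prkar1a, Celf3, 4930539E08Rik, Rbfox2, Arl14ep, Spef1, Gnl2, Kcnip4, Wdfy1, Spag1, Ppp2r3d, Arhgef40, Olfr323, Mafk, Tppp3, Dip2b, Uhrf1, Bicdl1 and Hmgn2. Those scoring 50 to 75 numbered 26. They lay at Gnb2, Slc14a2, Arrdc3, 4930550C14Rik, Pnkd, Ttll10, Vwa3b, Lrif1, Tsga10, Diaph3, Tapbp, Atp2b4 and Kcnip2, and at 4930519G04Rik, Mdga2, Lingo1, 1500009C09Rik, Nemp1, Nwd1, Arhgap1, Ptpn21, Dzip1, Nr2f2, Selplg, C530008M17Rik and Ttll3. Those scoring 30 to 50 numbered 31. They included Zfyve1, Sh2d6, Arid4a, Hsp90aa1, 4931429L15Rik, Cep57l1, Dixdc1, Itsn1, Got1l1, Cep112, Tmem29, Hmcn1, Lcorl, Celf5, Cfap126 and Kifc3, and Pitpnm1, Hdac5, Taf11, Osbpl10, Mybl2, Pik3cd, Dohh, Odf2, Rmdn2, Lmna, Grb10, Agbl2, Prkaca and Pbxip1. The last 8, under a score of 30, lay at Fam81a, Erich2, Myo10, Cfap36 and BC025920, with second peaks at Grb10, Selplg and Sh2d6.

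Replicate 2 alone met members at a wide range of genes, among them Mapre2, Prlr, Map3k12, Fam161a, Ank2, Map2, Utrn, Shank3, Hmox2, Bmi1, Rfx4 and Tbpl1. These examples were chosen after their values were seen. The 230 members met by replicate 2 rested on 227 distinct replicate 2 peaks, and the 117 met by the combined list on 113 distinct combined peaks. In 3 of the 230 the replicate 2 peak itself reached a 5′-most window, as did the combined peak in 4 of the 117. Cfap36, a cilium-associated protein, stands apart in this respect: its internal peak scored 3.19 in replicate 1, while the replicate 2 peak that met it scored 80.5 and the gene also had a 5′-most promoter peak.

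The members met by replicate 2 were 42.5% of the 541 (95% Wilson interval 38.4 to 46.7), against 20.2% of the whole replicate 1 list. At 5′-most promoters the share was 68.1%, and internal minus 5′-most promoters came to -25.6 percentage points (95% Newcombe interval -30.2 to -20.9, two-sided Fisher's exact test with Benjamini-Hochberg adjustment over 10 tests, adjusted p = 9.7e-27). At peaks outside promoters it was 17.3%, which was 25.2 points below the members (21.1 to 29.4, exact adjusted p = 4.2e-41). The combined list met 21.6% of members (18.4 to 25.3), against 7.19% of the whole list, 43.0% of 5′-most promoter peaks (exact adjusted p = 1.2e-20) and 5.06% of peaks outside promoters (exact adjusted p = 4.7e-39). How the combined list was made from the samples is not given in the sources used here, so its overlap with a replicate list may be set by its construction. These tests count peaks of 1 list, not samples, and their p-values cover counting error over peaks only.

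The score of a member went with its presence in replicate 2. Members had a median replicate 1 score of 7.03 (quartiles 4.35 and 21.3), between 21.2 at 5′-most promoters and 4.47 outside promoters. The median width was 280.0 bp, between 472 and 194 bp. A wider peak reaches a window more easily, so width and class are not independent under the rule. With the peak centre in the window instead, replicate 2 met 44.5% of members and 68.6% of 5′-most promoter peaks. In the top 10% of the replicate 1 list by score, from 22.5 upward (ties kept, 10.2% of the list), lay 24.4% of members (21 to 28.2), against 48.6% of 5′-most promoter peaks (difference -24.2 points, -28.2 to -19.8, exact adjusted p = 1.3e-24) and 7.96% of peaks outside promoters (16.4 points, 13 to 20.2, exact adjusted p = 2.5e-30). Within that top 10%, replicate 2 met 98.5% of members and 98.7% of 5′-most promoter peaks, so that nearly all peaks of both kinds were met and little room was left for a difference (-0.182 points, exact adjusted p = 0.697). Below that score, by a comparison added after the data were seen, replicate 2 met 24.4% of members and 39.2% of 5′-most promoter peaks (-14.8 points, exact adjusted p = 1.3e-07). The combined list met 82.6% and 85.5% within the top 10% (-2.96 points, exact adjusted p = 0.402) and 1.96% and 2.81% below it (-0.854 points, exact adjusted p = 0.46), and neither difference passed.

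**Figure D2:**
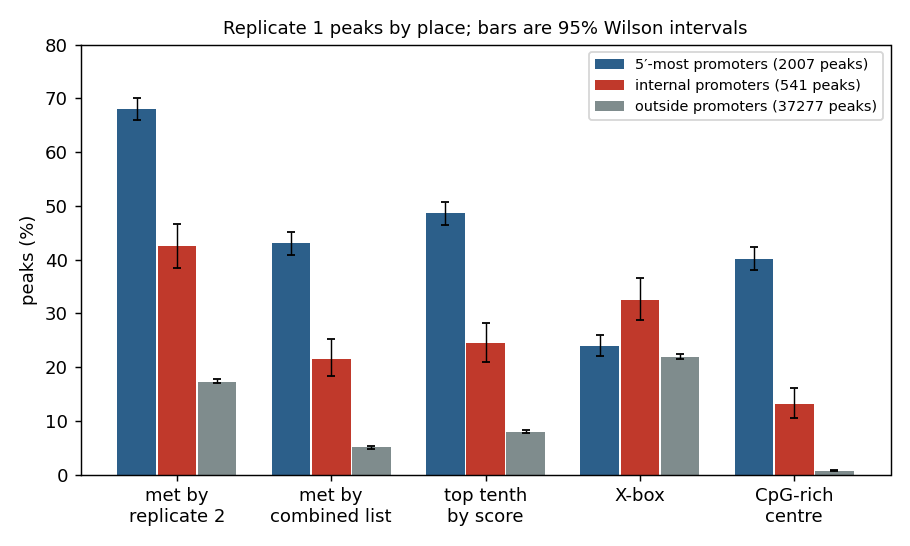
Share of replicate 1 peaks, in %, with 5 properties, for 2007 peaks at 5′-most promoters, 541 at internal promoters and 37277 outside promoters; bars carry 95% Wilson intervals. Internal promoter peaks lie between the other classes in every property but the X-box, which 32.5% of them hold, against 24.0% and 21.9%.

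The 83 highest-scoring members were all met by replicate 2. The first that was not lay at 4933434E20Rik, with a replicate 1 score of 44.0 and an X-box of 3 mismatches centred at -32.5 bp from the internal start. The next 4 were at Adgrg1 (23.2), Camk2d (20.7), Akr1c19 (19.9) and Cmip (18.4). Over all 311 members that replicate 2 did not meet, scores ran from 2.26 to 44.0 with a median of 4.47. Ordered by score and cut into 4 groups of like size, 98.5% of the highest group were met by replicate 2 (134 of 136), then 48.9%, 14.8% and, in the lowest, 7.41% (10 of 135).

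Among the 230 members met, the Spearman correlation of the 2 scores was 0.784, given as a description, since the points share their libraries. The same value was 0.87 over the 1367 peaks met at 5′-most promoters. The median scores of these members were 28.9 in replicate 1 and 13.9 in replicate 2, and 34 of the 230 scored higher in replicate 2.

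**Figure D3:**
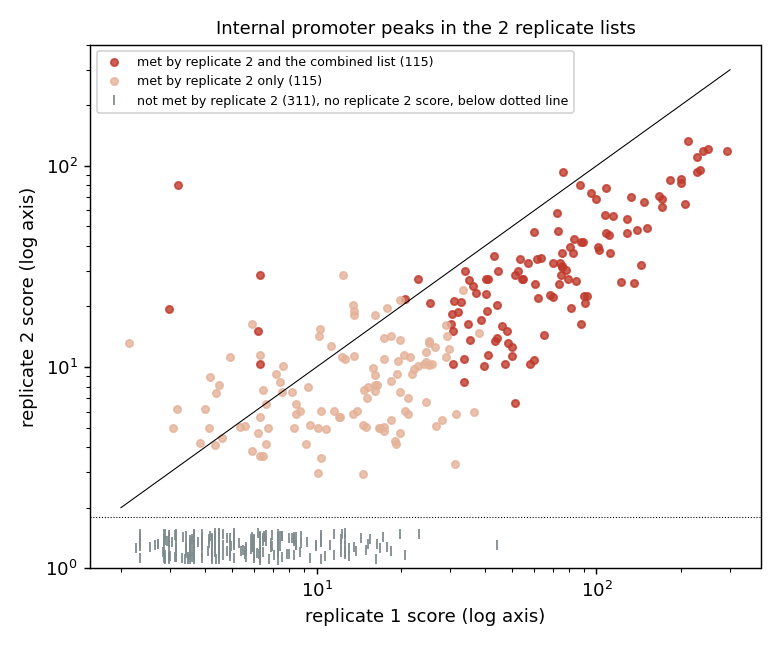
Replicate 2 score against replicate 1 score, both on log axes, for the members; dark points are the 115 also met by the combined list, light points the 115 met by replicate 2 only, and ticks below the dotted line the 311 with no replicate 2 peak, spread at random in height. Most points lie below the line of equal scores, and the ticks gather at low replicate 1 scores, with 44.0 as the highest.

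An X-box with at most 3 mismatches lay within the 200 bp around the centre in 176 members, or 32.5% (28.7 to 36.6), against 22.2% of the whole list. In windows of the same length 1000 bp to the right of the members, 1.11% held one (174 members with a site at the centre only, 4 at the flank only and 2 at both, exact McNemar test, p = 2.2e-46). The share was 24.0% at 5′-most promoter peaks (difference 8.57 points, 4.3 to 13, exact adjusted p = 8.1e-05). Over the whole peak rather than the centre window, the shares were 39.2% and 37.4% and the difference no longer passed the test (1.82 points, exact adjusted p = 0.454). Against peaks outside promoters, at 21.9%, the members were 10.6 points higher (6.75 to 14.7, exact adjusted p = 2.1e-08). That direction turned among peaks met by replicate 2, where 48.7% of members and 57.8% of peaks outside promoters held a site (-9.13 points, exact adjusted p = 0.00657). It also turned within the top 10% by score (51.5% and 62.8%, -11.3 points, exact adjusted p = 0.01), a comparison added after the data were seen.

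Members that replicate 2 met held an X-box in 48.7% (42.3 to 55.1) and the others in 20.6% (16.5 to 25.4). Over the same 4 score groups the share fell from 51.5% to 44.4%, 23% and 11.1%. For the members in the combined list the summit could be used in place of the centre, and 84 of 117 (71.8%, 63.0 to 79.2) then held a site within 200 bp. The median distance from summit to the middle of the site was 8.5 bp (quartiles 3.5 and 19.8). Counted over distinct combined peaks, the share was 70.8% of 113 at internal promoters (61.8 to 78.4), 56.0% of 836 at 5′-most promoters and 84.8% of 1786 outside promoters.

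Of the 176 sites in centre windows, 3 matched the palindrome at every position, 30 differed at 1 position, 64 at 2 and 79 at 3. The Tbcel site shown above lay outside its centre window and is not among them. Mismatches were most frequent at position 11 (36.9% of sites), position 4 (31.2%) and position 12 (29.5%). They were least frequent at position 1 (5.68%), position 13 (6.25%) and position 2 (7.39%). Positions 4 and 11 mirror each other across the centre of the palindrome. Among the strongest members with no X-box in the whole peak, Usp30 had 5 mismatches at best, Mast3 4, Wdr17 5 and Fam131a 4.

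**Figure D4:**
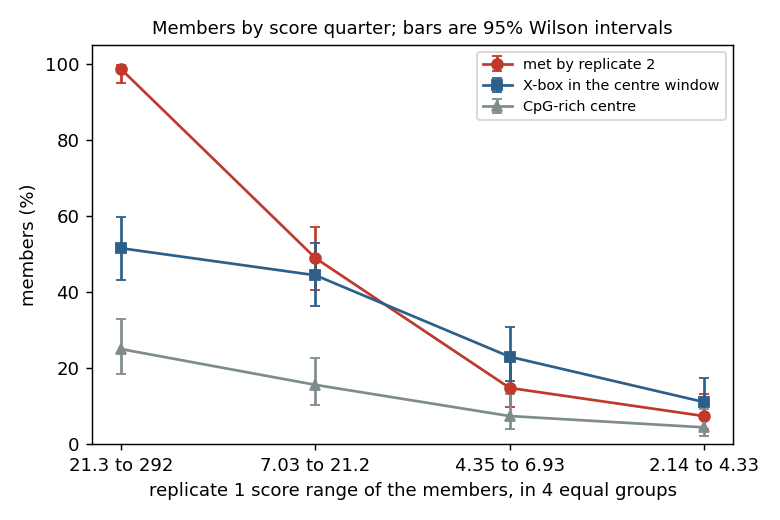
Share of members, in %, met by replicate 2 (circles), with an X-box in the 200 bp centre window (squares) and with a CpG-rich centre (triangles), in 4 groups of like size by replicate 1 score; bars are 95% Wilson intervals. All 3 shares fall from left to right, from 98.5% to 7.41% for replicate 2, from 51.5% to 11.1% for the X-box and from 25.0% to 4.44% for CpG-rich centres.

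A CpG-rich centre, defined as 200 bp with at least 50% G+C and an observed over expected CpG ratio of at least 0.6, marked 71 members, or 13.1% (10.5 to 16.2), against 2.85% of the whole list. CpG-rich sequence is common at broadly expressed promoters. The share was 40.1% at 5′-most promoter peaks (difference -27.0 points, -30.4 to -23.2, exact adjusted p = 5.2e-35) and 0.695% outside promoters (12.4 points, 9.84 to 15.5, exact adjusted p = 8.7e-61). Median G+C of the centre was 48.5% in members, 54.0% at 5′-most promoter peaks and 42.5% outside promoters. A pair of members shows the range among the strongest: the centre at Dync2h1 had 58.0% G+C and a CpG ratio of 0.833, and that at Tbcel 46.0% and 0.406.

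Other promoter words were counted in the same windows, on both strands. GGGCGG, the GC box bound by Sp factors, occurred in 13.3% of members (10.7 to 16.4), 28.3% of 5′-most promoter peaks and 2.13% of peaks outside promoters. CCAAT, the box bound by NF-Y, occurred in 27.4%, 30.0% and 27.4%. TGACGTCA, the cAMP response element, occurred in 1.11% of members (6 of 541), 1.79% of 5′-most promoter peaks and 0.225% of peaks outside promoters. Over the whole list the 3 words occurred in 3.6%, 27.5% and 0.316% of windows. These are counts of letters, not of bound sites, and windows that also hold an X-box were kept.

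Seen from the annotation, 13204 distinct internal starts had windows clear of every 5′-most window, and 226 of them (1.71%) held an X-box within the 200 bp centred on the start. A replicate 1 peak met the window of 90 of these 226 (39.8%), and 72 (31.9%) had a peak that replicate 2 also met. Of the 12978 internal starts without the site, 4.2% met a replicate 1 peak and 1.86% a peak met by replicate 2. At the 21837 distinct 5′-most starts, 547 (2.5%) held an X-box, and 70.4% of those met a replicate 1 peak, against 8.15% of those without one. Neighbouring starts of a gene can share a peak, so these shares carry no test.

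The place of the members against the internal start is given as a description. The centre lay within 100 bp of the nearest such start in 149 members (27.5%) and within 500 bp in 383 (70.8%), with a median of 72.0 bp upstream and quartiles of -412 and 148 bp. The rule bounds these distances at about the edges of the window, and the nearest start was used where several were met. Closeness of the centres to a start is therefore partly set by the rule. The summits of the 117 members in the combined list lay closer, within 100 bp in 63 (53.8%, 44.8 to 62.6) and within 500 bp in 101 (86.3%), and 80 (68.4%) were upstream of the start. The median summit was 44.0 bp upstream, with quartiles of -133 and 12 bp. These 117 members rest on 113 distinct combined peaks, so some summits were counted more than once. In 7 members the summit lay outside the replicate 1 peak. Members within 100 bp of the start were met by replicate 2 in 58.4% of cases (50.4 to 66.0), and those more than 500 bp away in 35.4% (28.4 to 43.2).

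**Figure D5:**
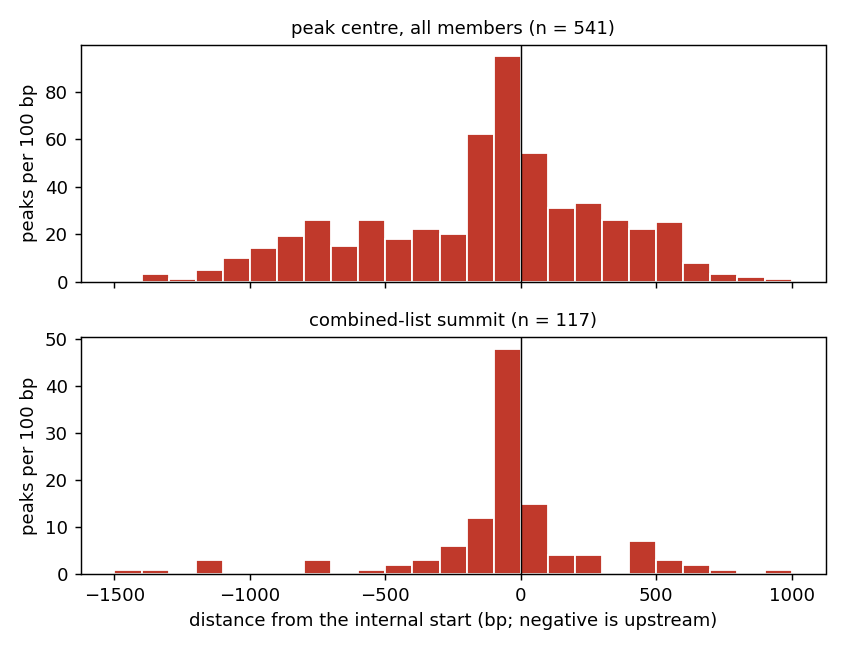
Distance from the nearest internal start, in bp along the gene's strand, of the centres of all 541 members (upper panel) and of the combined-list summits of 117 members (lower panel), in bins of 100 bp; negative values are upstream. Both histograms are highest in the bin just upstream of the start, and the summits are the more concentrated, with 63 of 117 within 100 bp.

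By the gene models, 309 members (57.1%) overlapped an exon and 232 (42.9%) lay in introns, and the centres of 408 (75.4%) were intronic. The internal start lay a median of 13.4 kb downstream of the 5′-most start, with quartiles of 3.2 and 63.1 kb. Replicate 2 met 51.5% of the 169 members whose start was under 5 kb from the 5′-most one (44.0 to 58.9), 44.8% of the 212 at 5 to 50 kb and 30.0% of the 160 farther away (23.4 to 37.5). CpG-rich centres made up 27.2%, 8.96% and 3.75% of the same groups, and X-boxes 27.2%, 35.8% and 33.8%. The 3 members met by replicate 2 with the most distant starts were Mdga2 at 751 kb, Kcnip4 at 635 kb and Hmcn1 at 409.8 kb. Mdga2, a cell surface protein of synapses, scored 59.9 and 10.8 in the 2 replicates, Kcnip4, a potassium channel interacting protein, 87.7 and 42.0, and the extracellular matrix protein Hmcn1 40.7 and 19.0. The Hmcn1 start belongs to a transcript without a complete annotated 5′ end, and the summit lay at -724 bp from that start. At the other end, 35 members lay within 200 bp of a 5′-most window, among them Cfap36, whose internal start was 0.487 kb from the first. The shortest distance between the starts was 0.05 kb, at Pbxip1. It was 0.068 kb at Cpt1b, whose summit lay 988 bp downstream of the internal start. In such members the internal window reaches little farther than the 5′-most one.

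How firmly an internal start was annotated differed between members. For 452 members at least 1 start belonged to a transcript with a complete 5′ end, while 89 met only transcripts whose start is marked as not found. Replicate 2 met 45.4% of the first and 28.1% of the second, a difference of 17.3 points (6.2 to 26.7, two-sided Fisher's exact test, adjusted p = 0.0064 over 2 tests). The shares with an X-box were 31.4% and 38.2%, and their difference did not pass the test (-6.79 points, -18.0 to 3.61, exact adjusted p = 0.218). A transcript of the consensus coding set (CCDS) began at 275 members (50.8%), and for 96 of these the 5′-most start had no CCDS transcript.

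Many members also met a start of a second annotation. The window at a promoter start listed by RefSeq, which lists several for some genes, met 231 of the 541 members (42.7%, 38.6 to 46.9), among them 12 of the 15 strongest. Leaving them out, by a choice made after the data were seen, left 310 members, of which 38.4% were met by replicate 2 and 35.8% held an X-box. Por, Dlg4 and Fam131a were the strongest members clear of these RefSeq starts. The 5′ end of the host gene as RefSeq gives it is a narrower measure. Of the 444 members whose host symbol was found there, 41 (9.23%, 6.88 to 12.3) met the window at that end, among them those at Pef1, Etfbkmt, Usp30 and Tbcel. Without these 41, 500 members remained, of which 42.2% were met by replicate 2 and 34.2% held an X-box. A lncRNA promoter window was met by 34 members (6.28%), including those at Pifo and Tsga10, and which transcript a peak belongs to cannot be told apart there.

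The coding start could be compared between the internal and the 5′-most transcript for 443 members. It was the same in 225 (50.8%, 46.1 to 55.4), so that the annotated transcripts differed upstream of it, lay farther downstream in 182 (41.1%) and farther upstream in 36 (8.13%). Among the 15 strongest, 9 shared the coding start, including Pef1, Dync2h1 and Cbx5, and 5 had a downstream one, including Pifo, Usp30 and Wdr17. For Sorbs2 the coding start of the internal transcript was upstream of the other. No expression data entered these counts, and whether the internal transcripts are made in these cells was not tested.

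Of the 486 host genes, 56 also had a replicate 1 peak at the 5′-most promoter (11.5%, 8.98 to 14.7), against 9.72% of all protein-coding genes and 9.96% of the 12921 genes with an internal window. The share was 7.71% with a window of -500 to +50 bp and 8.93% with peaks met by replicate 2 only. No share over all genes is given for either setting, so neither value can be set against the 9.72% or 9.96%. Replicate 2 met an internal peak at 224 host genes, and 196 of these had no replicate 1 peak at the 5′-most promoter. Internal peaks were found at 3.76% of the 12921 genes in replicate 1 and at 1.73% in peaks met by replicate 2. Genes whose internal window partly overlaps a 5′-most one, such as Pbxip1, are counted among the hosts.

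Genes of the cilium and flagellum were counted from a list of gene symbols. Of its 186 genes with an internal window, 20 (10.8%) had a member and 16 (8.6%) a member met by replicate 2, beside the 3.76% and 1.73% over all genes. The 16 were Agbl2, Cfap126, Cfap36, Dnal4, Dync2h1, Dzip1, Intu, Meig1, Odf2, Pifo, Spag1, Spef1, Tppp3, Ttll10, Ttll3 and Vwa3b, and the combined list met all 16. Agbl3, Dnah12, Tmem216 and Ttll5 had members in replicate 1 only. Over the 16, replicate 1 scores ran from 3.19 to 251 and replicate 2 scores from 10.1 to 121. An X-box lay in the centre window of 4 and in the whole peak of 6, beside a centre-window share of 48.7% over all 230 members met by replicate 2. At 3 of the genes, Cfap36, Odf2 and Agbl2, the 5′-most promoter had a peak as well. The combined-list summit counted for Cfap36 lay at -395 bp from the internal start, within the 5′-most window of the gene. The members at Dnal4, Spef1, Ttll10 and Vwa3b met the window at the 5′ end of the host gene as RefSeq gives it. The symbols Spag1 and Tppp3 were not found in RefSeq, so their members could not be compared with it.

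Several of these proteins work in flagellum assembly. Meig1, needed in spermatids for flagellum formation through the manchette, scored 148 in replicate 1 and 66.0 in replicate 2, with a summit 43 bp downstream of an internal start 3.52 kb from the first. Intu, a planar polarity effector of ciliogenesis, scored 112 and 36.8. The dynein light chain Dnal4 scored 108 and 46.1, and Spef1, a microtubule-bundling protein of motile cilia, 89.8 and 41.9. No X-box with at most 3 mismatches was found in these 4 peaks. Spag1, a dynein assembly factor, scored 84.8 and 26.8 and held a site with 3 mismatches, A12T, A13G and C14G. The tubulin-binding Tppp3 scored 79.1 and 27.4, the glycylase Ttll10 72.1 and 58.2, and Vwa3b 70 and 32.7. Dzip1, which acts at the base of the cilium, scored 52.3 and 30.1 and held a site with T2C and G9A at its summit. The glycylase Ttll3 scored 50 and 12.6, Cfap126 39.5 and 10.1, Odf2, a protein of the outer dense fibres and of centrioles, 32.7 and 21, and the tubulin carboxypeptidase Agbl2 30.8 and 15.1.

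Transcription regulators of spermatogenesis held a member at 4 of 98 genes with an internal window (4.08%) and a member met by replicate 2 at 3 (3.06%), beside the 3.76% and 1.73% over all genes. Mybl2, a MYB family factor, scored 34.8 and 16.4 and held a site with G4C alone, 592.5 bp downstream of an incomplete internal start. Rfx4, another member of the RFX family, had 3 internal peaks with replicate 1 scores of 16.7, 6.88 and 5.9, of which replicate 2 met the first, with a score of 4.99. None of the 3 held an X-box. Tbpl1, a TBP-like factor of spermatids, scored 10.3 and 15.5, and its internal start was 0.491 kb from the 5′-most one. The fourth gene, Rhox3c, was not met by replicate 2.

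The other lists are given by their counts, beside 3.76% of all genes with a member and 1.73% with a member met by replicate 2. Motors and cytoskeleton had members at 25 of 238 genes (10.5%) and members met by replicate 2 at 20 (8.4%), including Dync2h1, Dynll1, Kifc3, Map2, Mapre2, Myo10 and Lmna. Genes of cAMP signalling had 8 of 71 (11.3%) and 3 met (4.23%), all subunits of protein kinase A. Prkar1a, a regulatory subunit, scored 99.2 and 68.3, and the catalytic subunits Prkaca and Prkacb scored 30.4 and 18.3, and 16.2 and 8.1. Acrosome and sperm surface genes had 5 of 80 (6.25%) and 2 met (2.5%), Meig1 and Lrp8. Cell adhesion had 14 of 219 (6.39%) and 4 met (1.83%), and GTPases and vesicle traffic 18 of 424 (4.25%) and 8 met (1.89%). The shares met for cell adhesion and for GTPases and vesicle traffic were near that over all genes. The share for motors and cytoskeleton was above it, and those for cAMP signalling and the acrosome rested on 3 and 2 genes. Genes with many annotated starts have more windows to meet, and the number of windows was not equalised between lists.

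At 51 host genes there were 2 or more internal peaks, some at 1 start and some at starts far apart. Myo10, a motor of filopodia, had peaks with scores of 20.7 and 16.4 at starts 130.4 and 151 kb from the first, and replicate 2 met the stronger, with a score of 21.7. Its 2 sites shared C5T, alone in the first and with C11T and A12G in the second. Map2, a microtubule-associated protein of neurons, had peaks of 19.9 and 4.33 at starts 212 and 189 kb from the first, with X-boxes of 1 and 3 mismatches, and replicate 2 met the stronger (7.53). Ank2, a membrane skeleton adaptor, had peaks of 29.0 and 5.6, with 1 and 3 mismatches, and replicate 2 met the stronger (11.2). Adgrg1, an adhesion receptor, had peaks of 31.1 and 23.2, and replicate 2 met the first with a score of 3.29.

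At other genes the second peak lay at the same internal start or at another one. At Selplg, the P-selectin ligand, peaks of 51.0 and 6.26 were met by 1 replicate 2 peak of 28.5. Grb10, a growth factor receptor adaptor, had peaks of 30.8 and 6.28 met by 1 replicate 2 peak of 10.3, and Sh2d6 peaks of 47.9 and 6.17 met by 1 of 15.1. Il17rd had peaks of 17.4 and 8.15, met by separate replicate 2 peaks of 5.06 and 7.53, and Tsga10, a sperm tail protein, peaks of 68.4 and 5.9, met by separate peaks of 22.7 and 3.83. At Celf6, Dip2b, Lingo1, Slc14a2, Ttll3, Cfap126, Hmox2, Slc27a1, Znrf1, Stox2, Bmi1 and Pnpla8, among others, replicate 2 met 1 of the internal peaks only. Bmi1, a Polycomb protein, was the case where it met the weaker, 6.58 with an X-box of 2 mismatches, and not the neighbour of 7.27 with 5.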

How the data were processed

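RFX2 ChIP-seq peak lists of WT testis were analysed as deposited. Per the authors' methods and processing notes, base calls were made with CASAVA 1.8.2, reads were mapped to GRCm38 (Ensembl release 70) with Bowtie 0.12.7, reads with several locations were discarded, and peaks were called against input with MACS2 2.0.10.20130520. Human reads were removed by the authors from the second run of replicate 2. Each deposited replicate list holds for every peak a single −log10 value, and whether it comes from a p-value or q-value is not given. The deposited combined list gives a score, a fold enrichment as a ratio, −log10 p, −log10 q and a summit. How the combined list was made is not given in the sources used here. The authors' methods keep peaks that are reproducible between replicates (irreproducible discovery rate), and a list chosen that way, or called on pooled reads, overlaps each replicate largely by construction.

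Transcripts and starts of 21853 protein-coding genes came from GENCODE mouse release M21 (Ensembl release 96), which differs from the release the authors used. Sequence was read from GRCm38 patch 6 (RefSeq) with samtools 1.23.1. Peaks met a window or another peak at 1 bp of overlap, and the member count was checked with bedtools 2.31.1. Each peak was named by the gene whose internal start was nearest its centre. Shares carry 95% Wilson intervals and differences Newcombe intervals, for counting error only. Two-sided Fisher's exact tests were run in scipy 1.17.1, with a threshold of 0.05 after Benjamini-Hochberg adjustment over 10 tests (2 for annotated starts). The scripts were tested on simulated data. Alternatives changed the definition of the members, the overlap, the motif, the CpG thresholds and the list.

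The named peaks were the 15 highest members in all 3 lists, the 5 highest not met by replicate 2, cilium, flagellum and spermatogenesis regulator genes met by replicate 2, genes with several members of which replicate 2 met at least 1, and the 3 most distant starts. The members and lists were chosen with earlier results of these data known. Sequences on chromosome 18 are not shown. Some genes with a member peak are not reported here.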

Additional observations from a re-analysis of the deposited data

How the results depend on the processing

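Of 136 values under alternative settings, 126 kept their direction and their side of the threshold (or their range). Replicate 2 and the combined list met fewer members than 5′-most promoter peaks, but within the top 10% by score, where nearly all peaks of both kinds were met by replicate 2, the differences were -0.182 and -2.96 points and did not pass the test. Below the top 10% the difference for replicate 2 passed, and that for the combined list (-0.854 points) did not. The X-box difference from 5′-most promoter peaks was 1.82 points over whole peaks and did not pass; that from peaks outside promoters turned to -9.13 points among peaks met by replicate 2 and to -11.3 points within the top 10% by score. The difference in X-box share between basic and other transcripts was -9.35 points and passed, where complete against incomplete starts did not. Host genes with a 5′-most promoter peak made up 7.71% with the narrower window and 8.93% with peaks met by replicate 2, and 310 members remained without those at any start of the RefSeq promoter table. The cause of these shifts was not tested. Without replicate 1, the replicate 2 list gave 368 internal promoter peaks, of which 35.1% held an X-box (29.2% at its 5′-most promoter peaks, 23.3% outside promoters). No paired analysis was possible because the inputs, which share replicate numbers with the ChIP samples, have no peak list of their own, and no test compared samples.

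With 2 ChIP samples and no read counts, neither depth nor the spread between samples enters these intervals. Weak peaks cannot be told apart from background, and a peak absent from replicate 2 is not shown to be unbound there. No chromatin lacking RFX2 was analysed here, and binding of the antibody to other RFX proteins was not tested.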
